A study of Mus musculus with 6 samples.

Results

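The 9 genes described here encode uptake transporters that carry organic anions, organic cations and carnitine into cells: Slco1a1, Slco1a4, Slco1b2, Slco2a1, Slco2b1, Slc22a3, Slc22a5, Slc22a7 and Slc22a30. They were chosen by gene symbol from the 17275 genes of the count table, and all 9 were present and passed the filter on low counts. RNA came from hepatocytes of C57BL/6 mice that carried Axin2rtTA and TetO-H2B-GFP, aged 63 days by one label and 8 weeks by another, after 7 days of doxycycline in the drinking water. In these animals the Axin2 promoter drives the doxycycline-dependent activator, so that a nuclear green fluorescent histone marks cells in which the promoter was active during treatment. Both groups carried both transgenes and received doxycycline. After non-parenchymal cells had been removed, fluorescent (Axin2-positive, 3 libraries) and non-fluorescent (Axin2-negative, 3 libraries) hepatocytes were sorted and sequenced. Each of 3 sequencing indices was used once per group, and libraries that share an index are called index pairs 1, 2 and 3 here. The labels do not say whether libraries came from separate or pooled mice, so p-values measure the spread between these libraries.

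Organic anion transporting polypeptides, encoded by the Slco genes, are sodium-independent carriers of bile acids, conjugated bilirubin, thyroid and steroid hormone conjugates and many drugs. The Slc22 family holds organic cation, organic anion and carnitine transporters. On the blood-facing membrane of hepatocytes these proteins take up compounds that enzymes and export pumps then process, and hepatocytes near the central vein, where Axin2 and other Wnt targets are active, differ in many such genes from hepatocytes near the portal vein.

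The 6 libraries held 75882611 to 103386648 reads assigned to genes. The hepatocyte factor gene Hnf4a stood at 537 to 709 CPM (counts-per-million, scaled by the trimmed mean of M-values), and the bile duct keratin genes Krt19 and Krt7 at or below 0.115 CPM in every library. Axin2, whose promoter drives the sorted label, reached 22.6 and 24.2 CPM in Axin2-positive libraries 2 and 3, whereas their Axin2-negative partners held 3.75 and 5.75 CPM. At 2.40 CPM, the library labelled Axin2-positive 1 had less Axin2 than its partner (3.04 CPM), which goes against the label. The pericentral gene Glul differed 7.22-fold in index pair 2 and 8.80-fold in index pair 3, and its 2 values in index pair 1 were both 87.9 to 88.0 CPM. The Y-linked gene Ddx3y was at 90.8 and 84.1 CPM in index pair 2 and at or below 0.0309 CPM elsewhere, and Xist was at or below 0.0622 CPM in index pair 2 and at 368 to 606 CPM elsewhere. Index pair 2 thus had a male profile and the other two pairs a female one. Results below are given with and without index pair 1, and libraries are called by their labels throughout.

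Promoter letters are shown for the 4 genes called in index pairs 2 and 3 that have an entry in the RefSeq promoter table (GRCm38.p6), which matched 8 of the 9 genes. Slc22a7 had no entry. Each line gives the 250 bases before the start site, 5′ to 3′ on the gene's strand. Capitals mark the TCF/LEF core CTTTGA and the HNF1 half-site GTTAAT, searched on both strands.
Slco1b2, chr6:141629268-141629517, plus strand: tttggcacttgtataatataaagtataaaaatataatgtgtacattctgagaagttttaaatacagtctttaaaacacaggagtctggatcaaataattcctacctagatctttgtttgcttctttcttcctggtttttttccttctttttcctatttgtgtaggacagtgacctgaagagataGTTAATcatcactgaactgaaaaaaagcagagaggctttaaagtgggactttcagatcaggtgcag
Slc22a3, chr17:12507705-12507954, minus strand: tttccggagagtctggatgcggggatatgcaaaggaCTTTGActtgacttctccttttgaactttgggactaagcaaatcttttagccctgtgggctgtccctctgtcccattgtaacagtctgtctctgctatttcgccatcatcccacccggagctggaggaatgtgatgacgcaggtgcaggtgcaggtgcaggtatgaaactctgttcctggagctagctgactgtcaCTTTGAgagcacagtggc
Slc22a5, chr11:53891704-53891953, minus strand: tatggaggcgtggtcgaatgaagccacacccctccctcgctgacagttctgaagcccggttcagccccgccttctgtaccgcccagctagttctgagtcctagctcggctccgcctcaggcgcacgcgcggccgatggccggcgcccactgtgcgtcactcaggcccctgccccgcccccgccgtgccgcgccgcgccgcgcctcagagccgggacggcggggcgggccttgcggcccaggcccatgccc
Slco2a1, chr9:103008237-103008486, plus strand: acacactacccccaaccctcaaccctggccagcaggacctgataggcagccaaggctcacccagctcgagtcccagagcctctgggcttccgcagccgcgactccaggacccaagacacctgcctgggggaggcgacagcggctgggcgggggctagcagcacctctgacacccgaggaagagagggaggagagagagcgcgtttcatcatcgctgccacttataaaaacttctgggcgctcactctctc
Slc22a3 held the TCF/LEF core in 2 places, beginning at -214 and -18 from the start site. The same letters occurred in 13.8% of 32851 promoter windows of this length. Slco1b2 held the HNF1 half-site at -66, which 6.43% of windows held. Slc22a30 also had 2 copies of the TCF/LEF core, at -220 and -194, and the windows of the other members held neither motif. The nuclear receptor half-site AGGTCA, also searched on both strands, occurred in the windows of Slco1b2 and Slco1a1, against 14.0% of all windows. The palindromic STAT motif TTCNNNGAA occurred in those of Slco1b2 and of 1 of 3 Slco2b1 start sites, against 7.02%. No motif match overlapped another in the printed windows. A match describes letters only. The RefSeq start of Slco2a1 lies inside the gene span that GENCODE gives. Among the printed windows GC content ran from 33.6% in the Slco1b2 window to 73.6% in the Slc22a5 window.

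The comparison asks which genes distinguish fluorescent from non-fluorescent hepatocytes. Over all 6 libraries none of the 9 transporter genes was called. edgeR's quasi-likelihood test gave each an adjusted p of 0.999, and its calls covered 0% of 12343 genes as higher and 0% as lower. With an unadjusted p under 0.05 it listed 1.34% of genes as higher and 0.924% as lower, and none of the 9. DESeq2 and limma-voom also called 0 genes. With the index as a block, 0% of 12670 genes were called in either direction, while 4 members had an unadjusted p under 0.05 (edgeR): Slc22a5 (0.0199) and Slco1b2 (0.0323) with positive differences, and Slc22a7 (0.0313) and Slco2a1 (0.0443) with negative ones. The same holds for 4.27% of genes with positive and 4.8% with negative differences, and each of these 4 had an adjusted p of 0.454. None of the 9 separated the groups without overlap, as 3.44% of tested genes did with all Axin2-positive libraries higher and 3.77% with all lower.

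Most of the difference in these genes lay in index pairs 2 and 3. A fit of those 2 pairs, with the index as a block, called Slco1b2, Slc22a3 and Slc22a5 higher and Slco2a1 and Slc22a7 lower in the Axin2-positive libraries (edgeR, adjusted p under 0.05). It called 3.43% of 12385 genes higher and 4.01% lower. Against a fold of 1.5, Slco1b2 remained higher and Slc22a7 lower, beside 0.791% and 0.888% of all genes. Index pair 1 was left out because earlier results showed little difference in it, and the fit has 1 residual degree of freedom, so these calls describe the 2 pairs and lend no independent weight to a group difference. Leaving out index pair 2 or 3 instead gave 0% called in either direction.

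**Figure D1:**
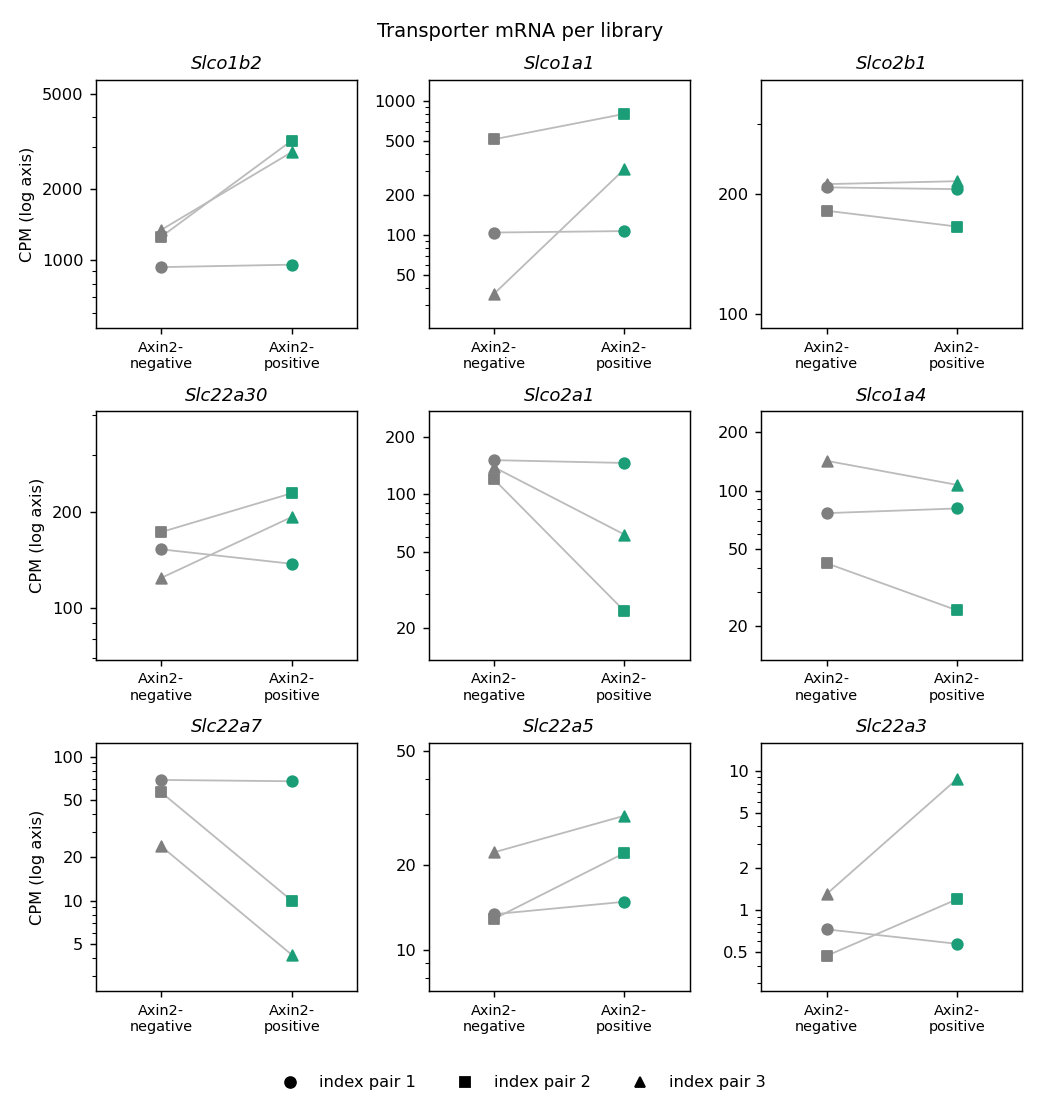
Level of each transporter mRNA in CPM (log axis) in each of the 6 libraries. Grey symbols are Axin2-negative and green symbols Axin2-positive libraries, the symbol shape gives the index pair, and a line joins the 2 libraries of a pair. Lines of index pair 1 are nearly flat, and those of index pairs 2 and 3 slope up for Slco1b2 and Slc22a3 and down for Slco2a1 and Slc22a7.

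Slco1b2 (chromosome 6, 141629518 to 141686646, GRCm38, 16 exons in the transcript used) encodes the main hepatocyte organic anion transporting polypeptide of mice, which takes up bile acids, bilirubin and statins. Its level was 959, 3175 and 2841 CPM in Axin2-positive libraries 1, 2 and 3, and 937, 1255 and 1342 CPM in Axin2-negative libraries 1, 2 and 3. Axin2-positive libraries 2 and 3 lay above the other 4, and the 2 libraries of index pair 1 were the lowest. The gene was 2.53-fold higher in index pair 2, 2.12-fold higher in index pair 3 and 1.02-fold in index pair 1. Group means were 2325 ± 1194 against 1178 ± 213 CPM (SD, n = 3 each), with a log2 fold change of 0.98 (SE 0.45; edgeR adjusted p = 0.999). In index pairs 2 and 3 alone the log2 fold change was 1.21 (SE 0.11; edgeR adjusted p = 0.00793, and 0.0294 against a fold of 1.5).

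Slco1b2 was the most abundant of the 9 in every library, also per transcript length. It held 71.3% and 75.3% of the summed CPM of all 9 genes in Axin2-positive libraries 2 and 3. In the other 4 libraries its share was 53.2% to 65.7%. The summed level of the 9 genes was 4455 and 3772 CPM in Axin2-positive libraries 2 and 3, 2361 and 2043 CPM in their partners, and 1720 and 1713 CPM in index pair 1.

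Slco1a1 (chromosome 6, 141907282 to 141946962) lies in the same gene cluster, of which the stretch from Slco1b2 to Slco1a1 spans 317 kb. It encodes a carrier of bile acids and steroid sulfates whose mRNA is known to be higher in male than in female mouse liver. Axin2-positive libraries 1, 2 and 3 gave 107, 804 and 311 CPM, and Axin2-negative libraries 104, 519 and 36.3 CPM. Both male libraries lay above all 4 female ones, as 14.9% of tested genes did. The difference between sorted fractions was 1.55-fold in the male pair and 8.56-fold in the female index pair 3. The log2 fold change was 0.89 (SE 1.11) over 6 libraries and 1.86 (SE 0.60; edgeR adjusted p = 0.127) in index pairs 2 and 3, so the gene was not called in either fit. Without Axin2-positive library 2 the 6-library value changed sign, to -0.076.

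Slco1a4 (chromosome 6, 141805440 to 141856199), between these genes, encodes a carrier known for taking up digoxin and for induction by ligands of the nuclear receptor PXR. The Axin2-positive libraries 1, 2 and 3 held 80.9, 24.0 and 107 CPM, against 76.5, 42.1 and 143 CPM in the Axin2-negative libraries. Here both male libraries lay below all 4 others, as 17.2% of tested genes did. Within index pairs 2 and 3 the Axin2-positive library was the lower one, at 0.571 and 0.751 of its partner. The fit of those pairs gave a log2 fold change of -0.61 (SE 0.13; edgeR adjusted p = 0.0525), which missed the threshold. The 6-library value, -0.30 (SE 0.65), turned to 0.11 without Axin2-positive library 2 and to 0.26 without Axin2-negative library 3. Slco1a1 and Slco1a4, members of 1 cluster, had differences of opposite sign in index pairs 2 and 3.

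Slco2b1 (chromosome 7, 99657804 to 99711340) encodes a broadly expressed carrier of steroid sulfates, found in other cell types too. Its level was 206, 166 and 216 CPM in Axin2-positive libraries 1, 2 and 3 and 208, 182 and 212 CPM in Axin2-negative ones. It had the narrowest range of the 9 genes, 0.38 on the log2 scale from the lowest to the highest library. The log2 fold change was -0.04 (SE 0.15) over 6 libraries and -0.05 (SE 0.11; edgeR adjusted p = 0.797) in index pairs 2 and 3. The male libraries were the 2 lowest. Kupffer cell markers, summed over 13 genes, were at 34.6, 96.4 and 44.1 CPM in Axin2-positive libraries and 34.8, 106 and 73.4 CPM in Axin2-negative ones. Mpeg1, chosen after its values were seen, made up most of these sums, and the other 12 markers summed to 4.35, 1.36 and 5.95 CPM against 4.69, 5.54 and 32.1 CPM. Of the 13 markers 10 were tested. All 10 were lower in the Axin2-positive library of both index pairs 2 and 3, beside 36.5% of all tested genes. The fit of those pairs called 6 of them lower, beside 4.01% of genes.

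Slco2a1 (chromosome 9, 102988712 to 103096002) encodes the prostaglandin transporter, which clears prostaglandins from the extracellular space. The Axin2-positive libraries 1, 2 and 3 held 146, 24.5 and 61.6 CPM, against 151, 119.95 and 139 CPM. Axin2-positive libraries 2 and 3 were the 2 lowest of the 6. Their partners were 4.91-fold and 2.26-fold higher, and index pair 1 differed 1.03-fold. Index pairs 2 and 3 alone gave a log2 fold change of -1.73 (SE 0.27; edgeR adjusted p = 0.0306), and 0.0946 against a fold of 1.5. Over 6 libraries it was -0.82 (SE 0.60), with -1.67 when the library labelled Axin2-positive 1 was left out and -0.40 when Axin2-positive library 2 was.

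Slco2a1 is also known in endothelial cells, and in bulk samples fewer cells of a type and less RNA per cell cannot be told apart. The 13 endothelial markers summed to 76.5, 3.13 and 77.7 CPM in the Axin2-positive libraries and 73.7, 8.15 and 108 CPM in the Axin2-negative ones. Of the 12 that were tested, 11 were lower in the Axin2-positive library of both index pairs 2 and 3, beside 36.5% of all tested genes. The fit of those pairs called 0 of them, beside 3.43% of genes higher and 4.01% lower. Cdh5 was at 0 reads in Axin2-positive library 2, and Vwf was at or below 0.0228 CPM throughout. Beside these sums, Slco2a1 was at 146, 24.5 and 61.6 CPM in the Axin2-positive libraries and at 151, 119.95 and 139 CPM in the Axin2-negative ones. The part of endothelial or Kupffer cell RNA in the Slco2a1 difference was not tested.

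Slc22a7 (chromosome 17, 46432183 to 46438457) encodes the organic anion transporter OAT2, a carrier of small organic anions and nucleotides. Axin2-positive libraries 1, 2 and 3 held 67.4, 10.01 and 4.21 CPM, and Axin2-negative libraries 68.9, 56.5 and 23.9 CPM. Axin2-positive libraries 2 and 3 were again the lowest of the 6, on 790 and 362 reads. Their partners were 5.65-fold and 5.67-fold higher, so the difference was nearly equal in the male and the female pair, although the levels were not. It had the lowest p of the 9 genes in the fit of index pairs 2 and 3 (log2 fold change -2.50, SE 0.09; edgeR adjusted p = 0.00173, and 0.00212 against a fold of 1.5). Over all 6 libraries it was -0.87 (SE 1.02), and the library labelled Axin2-positive 1 held 6551 reads of this gene and its partner 6588.

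Slc22a30 (chromosome 19, 8335371 to 8405111) belongs to a chromosome 19 cluster of organic anion transporter genes that also holds Slc22a26, Slc22a27, Slc22a28 and Slc22a29 within 624 kb. Its level was 138, 228 and 193 CPM in Axin2-positive libraries 1, 2 and 3 and 153, 173 and 124 CPM in Axin2-negative ones. The Axin2-positive library was 1.32-fold and 1.55-fold higher in index pairs 2 and 3 and lower in index pair 1. Index pairs 2 and 3 alone gave 0.52 (SE 0.11) on the log2 scale, which was not called (edgeR adjusted p = 0.0604). Of all 50-base words in its transcript, 47.2% also occur in Slc22a28, so reads of these genes may have been split or dropped and its counts are uncertain.

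Slc22a3 (chromosome 17, 12418960 to 12507704) encodes the organic cation transporter OCT3, which takes up monoamines such as histamine and noradrenaline. It was the rarest of the 9, at 0.576, 1.20 and 8.76 CPM in Axin2-positive libraries 1, 2 and 3 and 0.732, 0.473 and 1.31 CPM in Axin2-negative ones. These values rest on 56, 95 and 753 reads and on 70, 38 and 115 reads. Axin2-positive library 3 stood far above the rest, and Axin2-positive library 2 lay just below Axin2-negative library 3. The gene was 2.55-fold higher in index pair 2, 6.68-fold higher in index pair 3 and 0.788-fold in index pair 1. The fit of index pairs 2 and 3 called it (log2 fold change 2.15, SE 0.38; edgeR adjusted p = 0.0384), but not against a fold of 1.5 (0.108). All 6 libraries together gave 2.06 (SE 1.07), which dropped to 0.084 once Axin2-positive library 3 was left out.

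Slc22a5 (chromosome 11, 53864542 to 53891660) encodes OCTN2, the sodium-dependent carnitine transporter that supplies fatty acid oxidation. Axin2-positive libraries 1, 2 and 3 held 14.8, 22.0 and 29.7 CPM, against 13.4, 12.9 and 22.1 CPM in the Axin2-negative libraries. Its log2 difference was positive in all 3 index pairs, at 0.15, 0.77 and 0.43, as were those of Slco1b2 and Slco1a1. Those of Slco2a1 and Slc22a7 were negative in all 3. In index pair 1 the differences were only 0.03 for Slco1b2, 0.04 for Slco1a1, -0.05 for Slco2a1 and -0.03 for Slc22a7. Over all tested genes the SD of the log2 difference in index pair 1 was 0.218, so the signs there carry no weight. The share of all tested genes with the same sign in all 3 pairs was not computed. The fit of index pairs 2 and 3 called Slc22a5 higher (log2 fold change 0.60, SE 0.11, edgeR adjusted p = 0.0434), though not against a fold of 1.5 (adjusted p = 1). Of its 50-base words, 26.9% also occur in Slc22a21, a neighbouring carnitine carrier gene that was at or below 0.367 CPM in every library. For members other than Slc22a30 and Slc22a5 the share of words found in any other gene was at most 2.73%, and it was 0% for Slco1b2, Slco2b1, Slc22a3 and Slc22a7.

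**Figure D2:**
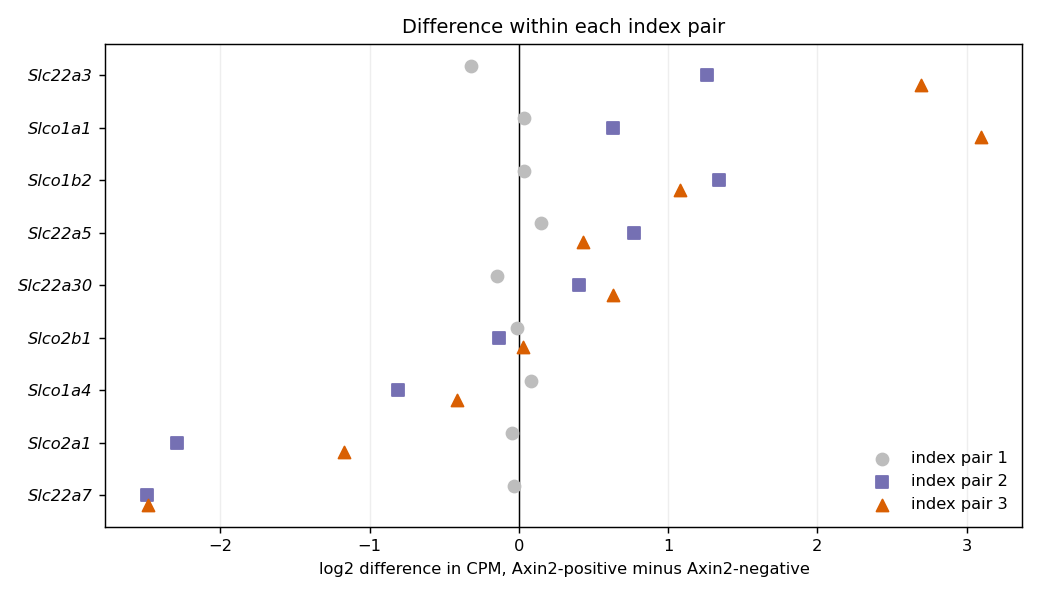
Log2 difference in CPM between the Axin2-positive and the Axin2-negative library of each index pair, for the 9 transporter genes ordered by the fit of index pairs 2 and 3. Circles of index pair 1 lie between -0.32 and 0.15, squares and triangles are index pairs 2 and 3, and Slc22a7 has the same difference in both (-2.49).

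Across the 9 genes, 5 were higher and 3 lower in the Axin2-positive library of both index pairs 2 and 3, and Slco2b1 changed sign between them. Among all tested genes 35.3% were higher and 36.5% lower in both. At least 2-fold higher in both pairs were Slco1b2 and Slc22a3, beside 1.33% of tested genes, and at least 2-fold lower were Slco2a1 and Slc22a7, beside 2.97%. The median log2 difference of the 9 was -0.01, 0.40 and 0.43 in index pairs 1, 2 and 3, against 0.00, -0.01 and 0.00 for all tested genes. In index pair 1 the largest difference was that of Slc22a3 (-0.32), on 56 and 70 reads, and 0.745% of tested genes differed 2-fold or more there.

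**Figure D3:**
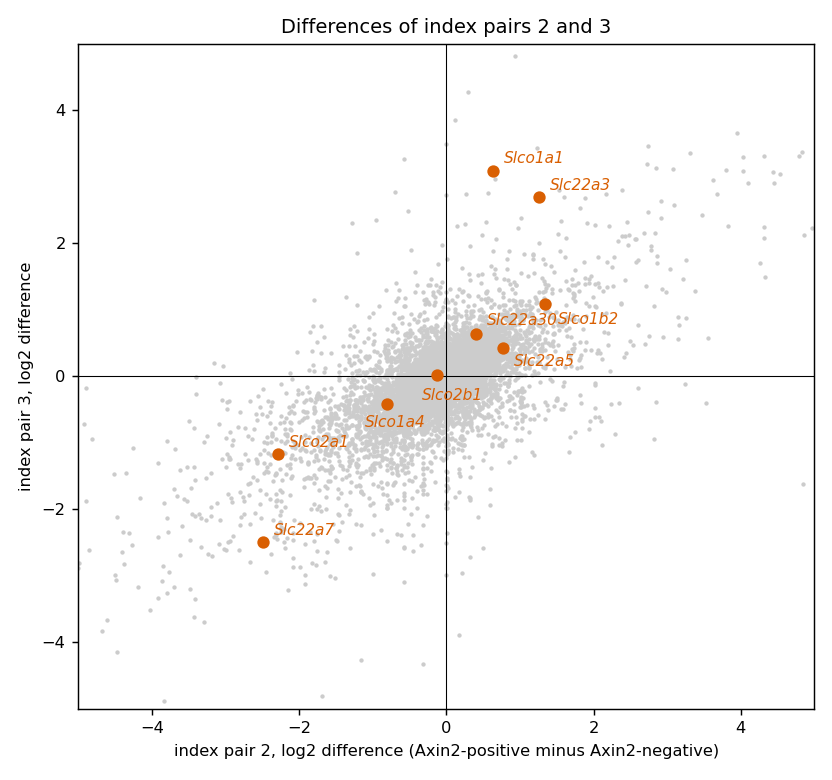
Log2 difference (Axin2-positive minus Axin2-negative) in index pair 2 on the horizontal and in index pair 3 on the vertical axis. Grey points are 12343 tested genes, of which 34 lie outside the axes, and orange points are the 9 transporters. Slco1a1 and Slc22a3 lie above the diagonal, with larger differences in index pair 3, and Slco2a1 lies further out in index pair 2.

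Levels of different genes were compared per kilobase of transcript. Over the 6 libraries Slco1b2 averaged 530 ± 300 CPM per kilobase (SD, n = 6) and its lowest library (283) lay above the highest library of any other member. Slco1a1 (92.4 ± 88.0) and Slc22a30 (74.5 ± 17.0) followed with overlapping ranges. Slco2b1 (45.3 ± 4.55) lay below Slc22a30 and above Slco1a4 without overlap, though inside the range of Slco1a1. Slco1a4 (20.6 ± 11.2), Slc22a7 (19.3 ± 14.7), Slco2a1 (15.03 ± 7.31) and Slc22a5 (6.25 ± 2.17) overlapped with each other, and Slc22a3 (0.621 ± 0.925) was the lowest on average. In the authors' deposited table, which combines the libraries of a group, Slco1b2 was at 543 FPKM (fragments per kilobase of transcript, scaled for depth) in Axin2-positive and 302 FPKM in Axin2-negative cells, and Slc22a3 at 1.20 and 0.277 FPKM. The lowest q-values among the members in the authors' deposited table were 0.0970 for Slc22a3, 0.235 for Slco2a1 and 0.264 for Slc22a7, so none passed 0.05 there.

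The rest of both families was read from a list of 31 genes, of which 24 were in the count table and 12 passed the filter. None was called over 6 libraries. The fit of index pairs 2 and 3 called 2 higher, among them Slc22a15, and 0 lower, beside 3.43% and 4.01% of genes. The median log2 fold change of the 12 in that fit was 0.61, beside 0.52 for the 9 members and 0.00 for all genes. Of the 12, 5 were higher and 1 lower in both index pairs 2 and 3, beside 35.3% and 36.5% of all tested genes. Some of the 12 held few reads, so their median is uncertain. Named after their values were seen, Slco3a1 held 1 to 18 reads per library (SE 1.08) and Slco1c1 0 to 15 (SE 0.85). Slc22a15 was at 10.7, 16.1 and 11.9 against 10.8, 10.4 and 7.90 CPM (log2 fold change 0.61, SE 0.11; edgeR adjusted p = 0.0360). The abundant Slc22a23 and Slc22a18 had log2 fold changes of -0.21 (SE 0.10) and 0.24 (SE 0.09) and did not pass.

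Of 13 other uptake and basolateral carriers, 9 were tested. The fit of index pairs 2 and 3 called 0 higher and 1 lower, beside 3.43% and 4.01% of all genes. The lower one was Slc10a2, a sodium-dependent bile acid transporter known from bile ducts and ileum. It was at 20.5, 4.85 and 5.44 CPM against 21.1, 9.62 and 10.2 CPM (log2 fold change -0.94, SE 0.13; edgeR adjusted p = 0.0237). The 7 bile duct markers found in the table summed to 33.8, 15.0 and 15.3 CPM against 34.8, 22.7 and 22.0 CPM. Without the most abundant marker the sums were 11.1, 0.19 and 0.174 CPM against 11.6, 3.24 and 2.71 CPM. In that fit 2 of the 3 tested markers were called lower, beside 4.01% of all genes. Their part in the Slc10a2 difference was not tested. Slc10a1, the sodium-dependent bile acid carrier NTCP of hepatocytes, was at 764, 497 and 719 CPM against 760.3, 684 and 844 CPM, and was not called (log2 fold change -0.34, SE 0.11; edgeR adjusted p = 0.134). Its difference in index pairs 2 and 3 was opposite in sign to that of Slco1b2, another bile acid carrier. The nucleoside carrier gene Slc29a1 had a log2 fold change of 0.07 (SE 0.11), the cation exporter gene Slc47a1 -0.22 (SE 0.13), Slc10a5 0.07 (SE 0.09) and Slc10a7 -0.20 (SE 0.13).

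**Figure D4:**
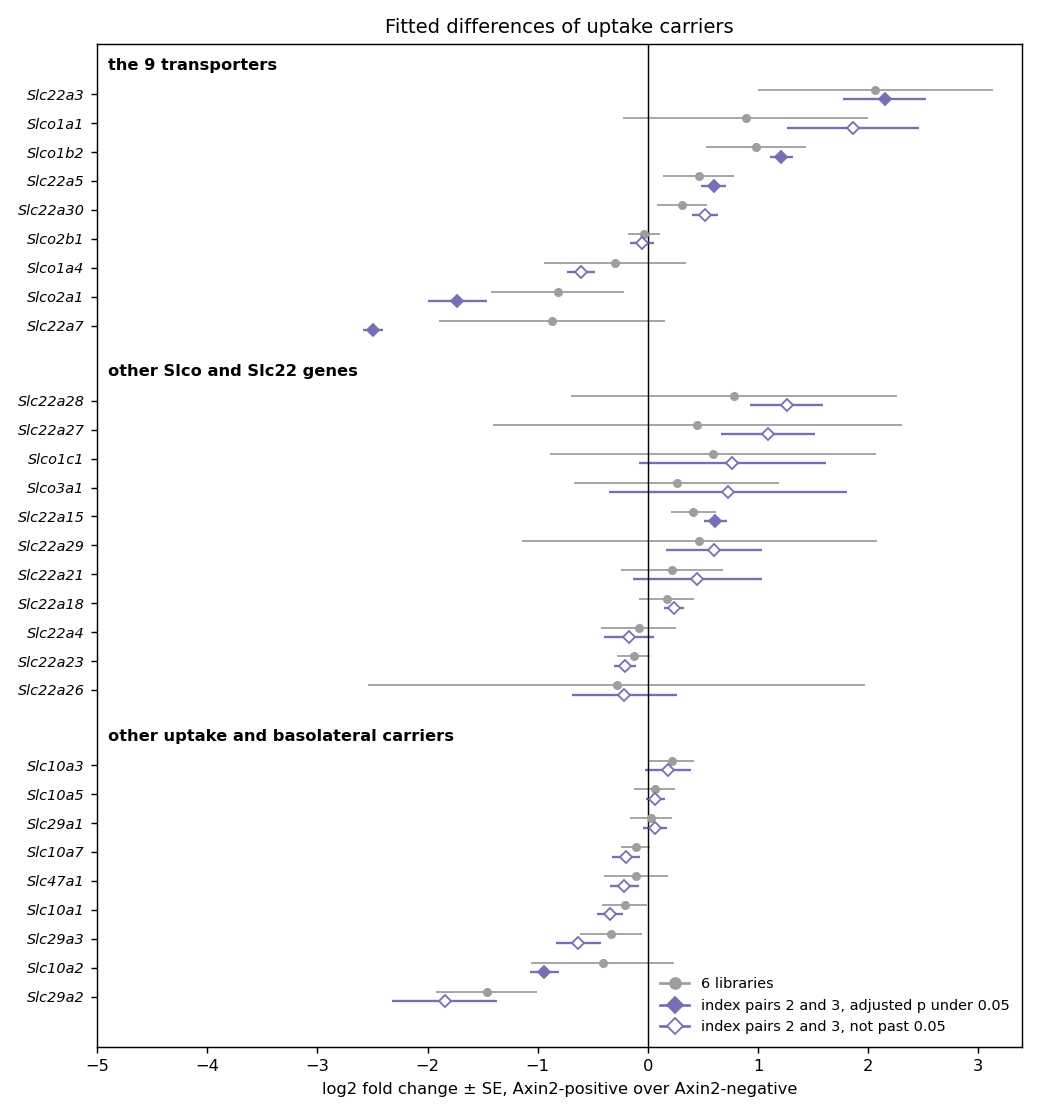
Log2 fold change ± SE (Axin2-positive over Axin2-negative) of the 9 transporters and of tested genes of both carrier lists. Grey circles are the fit of 6 libraries, and diamonds that of index pairs 2 and 3, filled where the edgeR adjusted p was under 0.05. Filled diamonds are 5 of the 9 transporters, Slc22a15 and Slc10a2.

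The 15 factors known to regulate or anchor these transporters were all tested. In index pairs 2 and 3, 2 were called higher and 1 lower, beside 3.43% and 4.01% of all genes. Ahr and Cux2 are named after their values were seen. Nr1i3, the xenobiotic receptor CAR, was at 151, 143 and 198 CPM against 151, 80.9 and 126 CPM (log2 fold change 0.74, SE 0.11; edgeR adjusted p = 0.0248). Ahr, the aryl hydrocarbon receptor, was at 37.8, 50.6 and 79.7 against 36.8, 21.6 and 53.7 CPM (0.90, SE 0.16; edgeR adjusted p = 0.0412). Cux2, a repressor known from female mouse liver, was at 33.0, 0 and 6.12 against 33.0, 0 and 35.0 CPM (-2.51, SE 0.18; edgeR adjusted p = 0.00887), so that its call rests on index pair 3 alone. The abundant factors Hnf4a (-0.23, SE 0.11), Rxra (-0.40, SE 0.11), Cebpa (-0.40, SE 0.11), Ppara (-0.06, SE 0.12) and the bile acid receptor gene Nr1h4 (0.28, SE 0.10) did not pass.

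Among the chromosome 19 neighbours of Slc22a30 the widest differences lay between the male pair and the other libraries. Slc22a26 was at 0.431 and 0.0747 CPM in the male index pair 2, on 34 and 6 reads, and at 144 to 229 CPM in the 4 female libraries. Slc22a27 was at 0.507 and 0.0124 CPM in the male pair and 21.6 to 42.8 CPM in the others. Slc22a28, named after its values were seen, showed the opposite order, at 26.3 and 16.4 CPM in the male pair and 0.923 to 4.04 CPM in the female libraries. Of the 50-base words of Slc22a28, 53.3% also occur in Slc22a30, and of those of Slc22a27, 25.8% occur in Slc22a29. Counts of these genes are therefore uncertain as well. Both libraries of index pair 2 were at least 2-fold above all others for 0.608% of tested genes and at least 2-fold below for 4.37%. Of the 9 transporters none met either limit. With 1 male pair, sex and the other properties of that pair cannot be told apart, and no test was made.

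For genes that set the male pair apart, the only other female check on the sorted fractions of index pair 3 is index pair 1. The Axin2 level of index pair 1 goes against its label. In index pair 3 Slco1a1 was 8.56-fold higher and Cux2 5.73-fold lower in the Axin2-positive library. Slc22a28 was at 4.04 against 0.923 CPM, Slc22a27 at 42.8 against 25.0 CPM and Slc22a26 at 144 against 229 CPM. Slco1a4 was 1.33-fold lower in the Axin2-positive library of that pair. Both index pair 1 libraries, also female, had 104 to 107 CPM of Slco1a1 and 33.0 CPM of Cux2. By its labels index pair 1 thus did not repeat these differences (1.03-fold for Slco1a1 and 0.999-fold for Cux2, Axin2-positive over Axin2-negative).

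**Figure D5:**
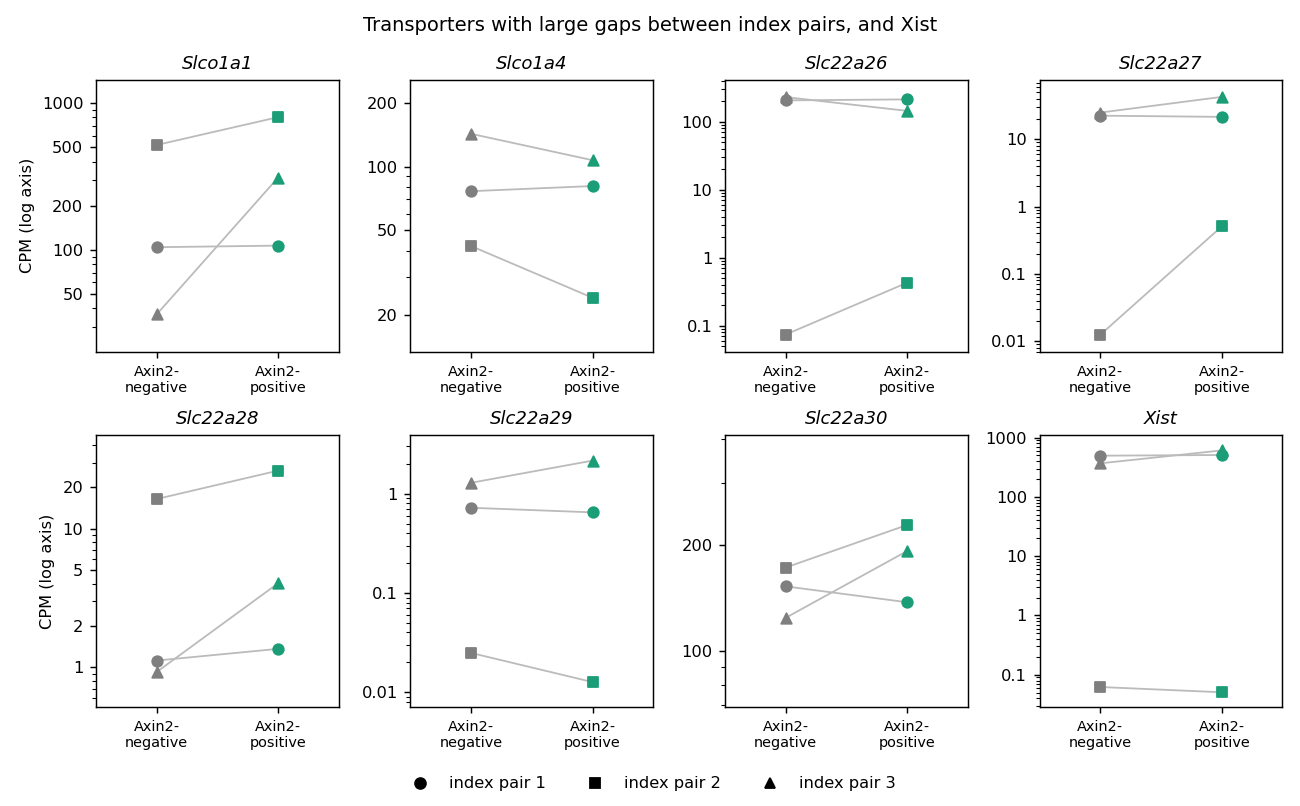
Level in CPM (log axis) of Slco1a1, Slco1a4, the chromosome 19 Slc22a genes and Xist in each library, with symbols and lines as in the plot of transporter levels. Squares, the male index pair 2, lie apart from circles and triangles for Slc22a26, Slc22a27, Slc22a28, Slc22a29 and Xist, and Slco1a1 in index pair 3 runs from 36.3 to 311 CPM.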

How the data were processed

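The deposited files hold read counts (whole numbers, 1 row per gene symbol and 1 column per library) and FPKM values per RefSeq transcript with p-values and q-values, 1 value per group, per the file headers. TopHat2 2.0.11, Cuffdiff 2.2.2 and the mm10 build are named in the submitters' processing notes. The sources used here name no gene counter, annotation, strand setting or read length. Counts were filtered and scaled (filterByExpr, TMM) and tested with edgeR 4.0.16 in R 4.3.3 (quasi-likelihood, group only, Benjamini-Hochberg over all tested genes, threshold 0.05). SE is the log2 fold change divided by the square root of F. Differences within a pair use log2 of CPM plus 0.05. Libraries with the same index deviated together from their group means (r over genes 0.672, 0.805 and 0.757, minimum 0.1), so indices were taken to pair libraries. Between libraries with different indices r ran from -0.617 to 0.193. Axin2-positive library 1 with Axin2-negative library 3 (0.193) thus also passed the minimum. Alternatives were the index as a block, fits of 2 pairs, DESeq2 1.42.0, limma-voom (limma 3.58.1), other scalings and filters, a threshold of 0.01 and leaving out libraries. The fits were tested on simulated data that held no difference between index pairs. Such data cannot show how the fits behave with the pair differences present here. Members and lists were chosen with earlier results of these data known. Named genes were the 9 members, up to 6 of the most abundant genes per list, and the 3 genes closest in profile to each of the 3 most variable members. Values of some listed genes are not reported here. Coordinates, exon counts and lengths are from GENCODE M21 (GRCm38), and promoter sequences from RefSeq. Shared sequence was counted as 50-base words found in transcripts of other genes.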

Additional observations from a re-analysis of the deposited data

How the results depend on the processing

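All 9 members were uncalled over 6 libraries, and with edgeR 0 genes were called higher and 0 lower. Other scalings, no filter, DESeq2, limma-voom, the threshold of 0.01 and the replicate block (0 higher, 0 lower) kept these counts at 0. At an unadjusted p under 0.05, edgeR listed 165 higher and 114 lower, DESeq2 266 and 166, limma-voom 101 and 137, and the replicate block 541 and 608. The block changed no member's call. The fit of index pairs 2 and 3 with the replicate block gave 425 higher and 497 lower, and 98 and 110 against a fold of 1.5. Leaving out single libraries gave 0 to 1 higher and 0 to 5 lower, and the calls came without the library labelled Axin2-positive 1. Slco1b2, Slco2a1, Slc22a3, Slc22a5, Slc22a7 and Slc22a30 kept their sign in all 17 alternatives. Over the 6 fits without 1 library, log2 fold changes ran from -0.076 to 2.53 for Slco1a1, -0.73 to 0.26 for Slco1a4 and -0.11 to 0.071 for Slco2b1, which all changed sign, in each case at least without the library labelled Axin2-positive 2. They ran from 0.69 to 1.35 for Slco1b2, -1.67 to -0.40 for Slco2a1, 0.084 to 2.57 for Slc22a3, 0.19 to 0.76 for Slc22a5, -2.81 to -0.36 for Slc22a7 and 0.14 to 0.49 for Slc22a30. Slco2b1 was at 0.0052 with index pair 2 left out and the replicate block. The cause was not tested. The low read numbers of Slc22a3 limit its precision.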

Other observations

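For the 3 members with the widest range over the 6 libraries, genes with the closest centred log2 profile were looked up among those averaging at least 10 CPM. Slc22a3 was closest to Fam55b, Glul and Aldh3a2, with root mean square differences of 0.481, 0.545 and 0.606 on the log2 scale and Pearson r of 0.958, 0.931 and 0.897 over 6 libraries. Glul encodes glutamine synthetase, and Aldh3a2 a fatty aldehyde dehydrogenase. Slc22a7 was closest to Tiam2 (0.465), Arsg (0.608) and Bdh2 (0.642), with r of 0.966, 0.963 and 0.907. All 3 were lowest in the libraries labelled Axin2-positive 2 and 3. Tiam2 was at 5.21 and 2.49 CPM there and at 17.7 to 22.8 CPM in the other 4 libraries. Slco1a1 was closest to Gm2083 (0.591), Tsc22d1 (0.599) and Tsku (0.641), with r of 0.923, 0.949 and 0.908. Gm2083 was at 85.5, 1443 and 386.2 CPM in Axin2-positive libraries 1, 2 and 3 and at 185.3, 385.0 and 78.2 CPM in Axin2-negative ones, so that the female Axin2-positive library 3 was level with the male Axin2-negative library. With 6 points, among which index pairs share their levels, and many genes searched, these likenesses are descriptions.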
